A study of Danio rerio with 14 samples.

Results

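The genes described here are the cytoglobin genes cygb1 and cygb2, the adult haemoglobin chain genes hbba1, hbaa1 and hbba2, and alas2, in the regenerating fin of the zebrafish (Danio rerio). They were taken by symbol, 6 genes of 14836 in the deposited table, and all 6 symbols were present. The symbols were themselves chosen by earlier results of these data on the 3 against 0 dpa difference (dpa, days post amputation). Differences that use the 0 or 3 dpa libraries are therefore given as a description of the members, with no test. At least 1 TPM in at least 2 libraries was reached by 5 of the 6. The deposited values are named TPM and sum to 1000000 in each library. Their low values were whole multiples of a single step per library, whatever the gene: within 0.1 of a step, this held for 93.3% to 98.4% of the values up to 20 steps. They thus step as read counts scaled to the library total (CPM) do, with no correction for gene length visible. Levels are therefore compared within a gene and not between genes. A sum over genes, and the share of a gene in it, is of these values and may depend on gene length. Taken as 1 read, the step of 0.0625 to 0.0677 TPM gives about 14800000 to 16000000 reads per library. hbba2 reached 1 TPM only in libraries of 3 and 14 dpa, and cygb2 reached 1 TPM in none.

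The study sampled the distal tip of fin rays, a strip of about 250 µm per ray, from wild-type fish at 0, 3, 7, 10 and 14 dpa. The labels call the first regrowth time 3 dpa and the design text gives it as 3.5. The fish are labelled WT with no transgene, treatment or agent besides amputation, and their strain and age are not given in the sources used here. Each library was a pool of 10 animals, with 3 libraries at each time except 14 dpa, where RNA of only 2 pools was good enough, and p-values measure the spread between pools. The title of the study concerns Erk signalling gradients and memory of skeletal size. The strip is mixed tissue and also moves along the ray as the fin grows, so position cannot be told apart from time.

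Haemoglobin carries oxygen in red cells as a tetramer of alpha and beta chains, each holding a haem group. Adult and embryonic chains are encoded by separate genes that lie together in clusters in zebrafish. alas2 encodes the red cell form of 5-aminolevulinate synthase, which makes the first committed step of haem synthesis, and alas1 encodes the form used by other cells. Cytoglobin is a haem protein of the same superfamily made outside red cells, in mammals chiefly by fibroblasts and related stromal cells, where it can oxidise nitric oxide and react with other oxidants. Zebrafish carry a pair of cytoglobin genes. Fish red cells keep their nucleus and carry globin transcripts, so a strip of tissue that holds blood holds globin RNA.

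cygb1 was low in the fin tip at 0 dpa and at its highest at 3 dpa, and its mean was lower at each later time than at the one before. At 0 dpa its 3 libraries stood at 7.83, 16.5 and 11.6 TPM. At 3 dpa they stood at 1136, 1232 and 906 TPM. At 7 dpa they stood at 301, 187 and 222 TPM. All 3 dpa libraries lay far above all libraries of the other times. At 10 dpa the values were 174, 104 and 122 TPM, and at 14 dpa they were 82.1 and 58.3 TPM. In reads taken from the step, the lowest cygb1 value stood on about 116 reads.

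The order of cygb1 was thus 3, 7, 10, 14 and 0 dpa from high to low, and no neighbours in that order overlapped. The mean at 3 dpa was 91.2 times that at 0 dpa (1091 ± 168 against 12.0 ± 4.34 TPM, SD, n = 3 each), a log2 difference of 6.44 ± 0.27 (SE). Log2 differences throughout are of log2(TPM + 1), which understates the change of low genes. Against 0 dpa the log2 difference was 4.22 ± 0.27 at 7 dpa, 3.40 ± 0.27 at 10 dpa and 2.49 ± 0.30 at 14 dpa. From 3 to 7 dpa it was -2.22 ± 0.27. At 14 dpa the mean was still 5.87 times that at 0 dpa.

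Only the differences among 7, 10 and 14 dpa compare libraries outside the choice of the members. These were tested with limma, a linear model fitted across all 11272 genes kept, with Benjamini-Hochberg adjustment. The fit was over all 14 libraries, so the spread behind each SE and p also draws on those of 0 and 3 dpa. cygb1 fell from 237 ± 58.0 TPM at 7 dpa (n = 3) to 70.2 ± 16.8 TPM at 14 dpa (n = 2), a 3.37-fold difference (log2 difference -1.73 ± 0.30, limma adjusted p = 0.00211). In that comparison 7.23% of all genes were called lower and 9.36% higher. The call held with each of the 14 libraries left out in turn (log2 difference -1.97 to -1.49, limma adjusted p 0.00119 to 0.0389). The steps between did not pass, with -0.83 ± 0.27 from 7 to 10 dpa (limma adjusted p = 0.482) and -0.91 ± 0.30 from 10 to 14 dpa (limma adjusted p = 0.0814). Over all genes the test called 0.0177% higher and 0% lower from 7 to 10 dpa, where 809 genes had an unadjusted p under 0.05. From 10 to 14 dpa it called 5.14% higher and 3.64% lower. Groups without overlap in the direction of cygb1 were found for 18.3% of genes from 3 to 7 dpa, 5.34% from 7 to 10 dpa and 15.8% from 10 to 14 dpa.

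cygb2, the other cytoglobin gene, was at or near 0 throughout. It was listed at 0 in 8 of 14 libraries, among them all those of 0 and 14 dpa. Its highest value was 0.127 TPM, in 3 dpa replicate 1. The other 5 values above 0 were between 0.0642 and 0.0671 TPM, at 3, 7 and 10 dpa. These values correspond to 1 read each and that of 3 dpa replicate 1 to 2 reads. A count of 0 allows up to 3 reads, which is 0.187 to 0.203 TPM in these libraries (counting error only). All 14 cygb2 values were under that limit, so no level and no difference between times was detectable at this depth.

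**Figure D1:**
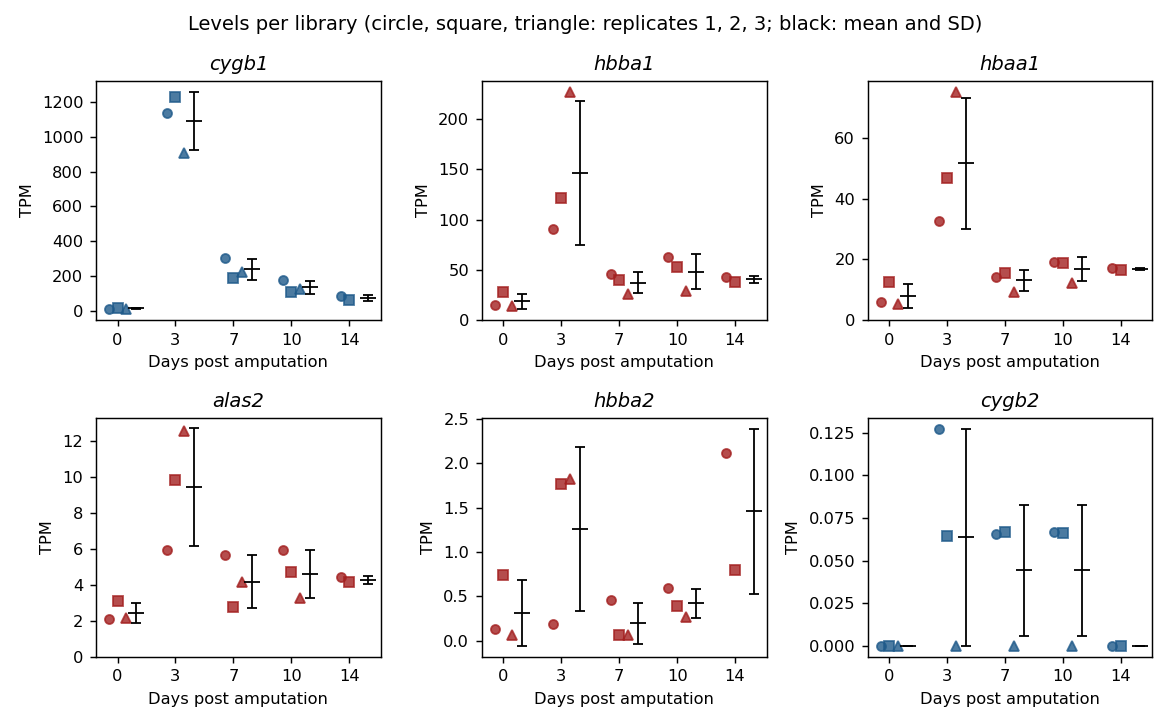
Level of each member in every library, in TPM, against days post amputation, with a panel for each gene and its own vertical axis. Points are libraries, bars are means and error bars are SD. cygb1 lies at 906 to 1232 TPM at 3 dpa and at 58.3 to 82.1 TPM at 14 dpa, the ranges of hbba1 and alas2 at 7, 10 and 14 dpa overlap, and cygb2 never exceeds 0.127 TPM.

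hbba1, an adult beta chain, was highest at 3 dpa. At 0 dpa it stood at 14.6, 27.6 and 13.8 TPM. At 3 dpa it stood at 90.5, 122 and 227 TPM, which were its 3 highest values. At 7 dpa it was back at 46.0, 40.3 and 25.5 TPM. At 10 dpa it was at 62.2, 53.3 and 29.4 TPM and at 14 dpa at 43.2 and 37.8 TPM. The ranges at 7, 10 and 14 dpa overlapped one another, and the range at 7 dpa overlapped that at 0 dpa.

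The mean of hbba1 at 3 dpa was 7.85 times that at 0 dpa (146 ± 71.5 against 18.6 ± 7.76 TPM, SD, n = 3 each), a log2 difference of 2.87 ± 0.38. Against 0 dpa the log2 difference was then 0.99 ± 0.38 at 7 dpa, 1.33 ± 0.38 at 10 dpa and 1.15 ± 0.42 at 14 dpa. From 3 to 7 dpa it was -1.88 ± 0.38. From 7 to 14 dpa it was 0.15 ± 0.42, which did not pass (limma adjusted p = 0.865), and neither step between them did (limma adjusted p = 0.919 and 0.813).

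hbaa1, an adult alpha chain, followed the same libraries. Its values were 5.86, 12.4 and 5.18 TPM at 0 dpa and 32.7, 46.9 and 75.2 TPM at 3 dpa. They were 14.2, 15.6 and 9.27 TPM at 7 dpa, 19.2, 18.9 and 12.3 TPM at 10 dpa, and 17.0 and 16.7 TPM at 14 dpa. Every 3 dpa library was above every other, and 0 dpa replicate 2 overlapped the libraries of 7 and 10 dpa. The log2 difference from 0 dpa was 2.59 ± 0.34 at 3 dpa, 0.73 ± 0.34 at 7 dpa, 1.08 ± 0.34 at 10 dpa and 1.11 ± 0.38 at 14 dpa. Between 7 and 14 dpa it was 0.37 ± 0.38 (limma adjusted p = 0.576).

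hbba2, a further adult beta chain, was at most 2.12 TPM, or about 31 reads. It stood at 0.135, 0.742 and 0.0672 TPM at 0 dpa, at 0.191, 1.77 and 1.82 TPM at 3 dpa, and at 0.461, 0.0669 and 0.0662 TPM at 7 dpa. At 10 dpa it was at 0.601, 0.396 and 0.271 TPM, and at 14 dpa at 2.12 and 0.797 TPM. The 0 and 3 dpa libraries overlapped, since 3 dpa replicate 1 was below 0 dpa replicate 2. Its log2 difference from 7 to 14 dpa was 0.999 ± 0.37, which did not pass (limma adjusted p = 0.0846). It was kept only through 3 dpa replicates 2 and 3 and 14 dpa replicate 1, so whether it was tested depended on its 3 and 14 dpa levels. Replicates 2 and 3 at 7 dpa stood on about 1 read each.

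alas2, whose enzyme starts the haem supply of the globin chains in red cells, was also highest at 3 dpa. It stood at 2.09, 3.11 and 2.14 TPM at 0 dpa and at 5.97, 9.85 and 12.5 TPM at 3 dpa. At 7 dpa it was at 5.65, 2.75 and 4.17 TPM, at 10 dpa at 5.92, 4.71 and 3.25 TPM, and at 14 dpa at 4.43 and 4.14 TPM. No library of another time reached the lowest 3 dpa value, and 10 dpa replicate 1 came closest to it. The log2 difference from 0 dpa was 1.56 ± 0.28 at 3 dpa, 0.56 ± 0.28 at 7 dpa, 0.69 ± 0.28 at 10 dpa and 0.63 ± 0.31 at 14 dpa. Between 7 and 14 dpa it was 0.06 ± 0.31 (limma adjusted p = 0.927).

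The members whose libraries all lay above the 0 dpa libraries were cygb1, hbba1, hbaa1 and alas2 at 3 dpa, where 39.2% of all genes did so, and cygb1 alone at 7 dpa, where 26.8% did. They were cygb1, hbba1 and alas2 at 10 dpa (21.9% of all genes) and all but cygb2 of the 6 at 14 dpa (41.3%). The members had been picked for their 3 against 0 dpa difference, so nothing is read from these counts. In bulk tissue, fewer or more cells of a type and less or more RNA per cell cannot be told apart.

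The globin genes lie side by side, and their reads are hard to divide. In RefSeq's gene order on the GRCz12tu assembly, 13 globin genes follow one another on chromosome 3, with hbaa2, hbba2, ba1l, hbaa1, hbba1 and si:ch211-5k11.8 first and the embryonic genes after them. cygb1 is on the same chromosome, cygb2 is on chromosome 6 and alas2 on chromosome 8. RefSeq lists hbba1.1 as another symbol of ba1l and hbaa1.2 as another of si:ch211-5k11.8, and Salmon divides reads between such similar copies by estimation, so the level of each single chain is uncertain. These neighbours, named after their values were seen, moved with the members. ba1l was at 6.06 ± 3.17 TPM at 0 dpa and 53.6 ± 24.5 TPM at 3 dpa, and at 13.9 to 16.8 TPM by mean later. si:ch211-5k11.8 was at 18.8 ± 10.9 TPM at 0 dpa, 129 ± 62.1 TPM at 3 dpa and 32.4 to 41.6 TPM by mean later. With hbba1, hbba2 and ba1l summed, the log2 difference at 3 dpa was 2.94, against 2.87 for hbba1 alone.

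The chains summed over hbba1, hbaa1, hbba2, ba1l and si:ch211-5k11.8 give the adult globin level of a library. It was 39.5, 81.7 and 33.8 TPM at 0 dpa, and 231, 334 and 581 TPM at 3 dpa. It was 119, 106 and 65.3 TPM at 7 dpa, 155, 136 and 81.1 TPM at 10 dpa, and 124 and 105 TPM at 14 dpa. The ratio of hbba1 to hbaa1 was nearly fixed, between 2.22 and 3.25 in all 14 libraries.

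The embryonic chain genes and nearly all other globins were low. Of 12 further globin genes in the table, 11 were under 1 TPM in every library, and of these hbaa2 was highest, at 0.565 TPM. The exception was mb, myoglobin, an oxygen-binding globin of muscle that some other fish tissues also make. It stood at 77.7, 69.7 and 62.9 TPM at 0 dpa and at 25.6, 22.6 and 25.6 TPM at 3 dpa. It was lower at 3 dpa without overlap (log2 difference -1.47 ± 0.14, limma adjusted p = 2.93e-06). By 7 dpa it was at 54.5 to 69.7 TPM, so the 3 dpa libraries that were highest for cygb1 and hbba1 were the lowest for mb. At 14 dpa it was at 47.2 and 45.1 TPM, below 0 dpa (log2 difference -0.59 ± 0.16, limma adjusted p = 0.0339).

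Relative to hbba1, cygb1 was higher at 3 than at 0 dpa and lower at 14 than at 7 dpa. Since values are not per length, only the change of a ratio between genes is read. The ratio of cygb1 to hbba1 was 0.538, 0.598 and 0.841 at 0 dpa. At 3 dpa it was 12.5, 10.1 and 3.99, and at 7 dpa 6.53, 4.64 and 8.73. It was 2.79, 1.96 and 4.17 at 10 dpa, and 1.90 and 1.54 at 14 dpa. The 3 and 7 dpa libraries overlapped, and both 14 dpa libraries were below all libraries of 3, 7 and 10 dpa and above all of 0 dpa.

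The ratio was tested over the 8 libraries of 7, 10 and 14 dpa, on the log2 scale with 1 TPM added to each gene. Its mean was 2.65 ± 0.45 at 7 dpa (SD, n = 3), 1.48 ± 0.53 at 10 dpa (n = 3) and 0.76 ± 0.21 at 14 dpa (n = 2). It differed between these times (exact permutation test over all 560 arrangements of the libraries, p = 0.0143). The change from 7 to 14 dpa was -1.89 on the log2 scale. With 1 library left out it was -2.12 to -1.67, and the exact permutation p rose to 0.0571 without 7 dpa replicate 3 or 14 dpa replicate 1 and to 0.0714 without 14 dpa replicate 2. The same test on cygb2 against hbba1 gave an exact permutation p of 0.589. With cygb2 at or near 0 in every library, that ratio varies almost only with hbba1, so this cannot test cygb2.

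**Figure D2:**
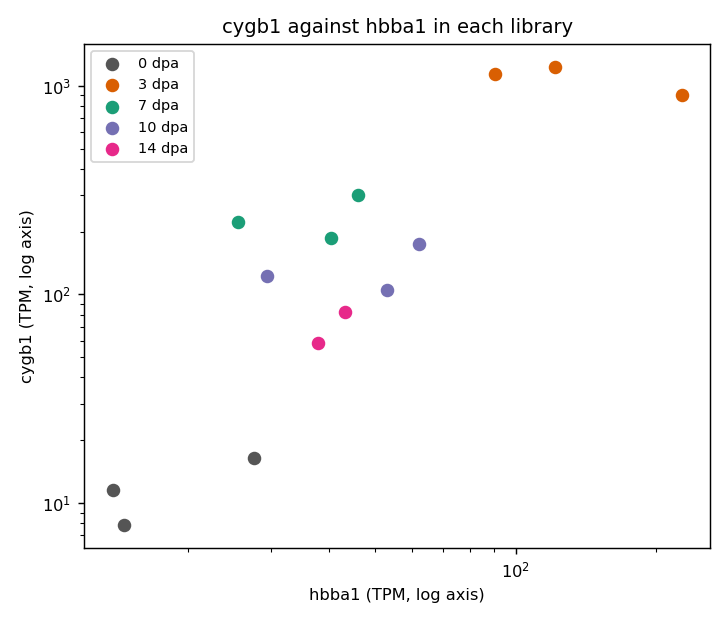
cygb1 (vertical) against hbba1 (horizontal), both in TPM on log axes. Each point is a library and its colour gives the time, and the ratio of the 2 values lies between 0.538 and 0.841 at 0 dpa, between 3.99 and 12.5 at 3 dpa and between 1.54 and 1.90 at 14 dpa.

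Within a time, libraries high for hbba1 were mostly high for hbaa1 and alas2, and cygb1 shared that order only in part. Replicate 2 at 0 dpa, replicate 1 at 10 dpa and replicate 1 at 14 dpa were the highest of their time for all of cygb1, hbba1, hbaa1 and alas2. Replicate 1 at 7 dpa was the highest for cygb1, hbba1 and alas2, and replicate 2 for hbaa1. At 3 dpa, replicate 3 was the highest library for hbba1, hbaa1 and alas2 and the lowest for cygb1. At 7 dpa, replicate 3 was the lowest for hbba1 and hbaa1 and replicate 2 the lowest for cygb1 and alas2. At 10 dpa, replicate 3 was the lowest for hbba1, hbaa1 and alas2 and replicate 2 the lowest for cygb1.

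Over the deviations of the 14 libraries from the mean of their time on the log2 scale, Pearson's r was 0.959 between hbba1 and hbaa1 and 0.756 between hbba1 and alas2. It was 0.280 between cygb1 and hbba1 and 0.436 between cygb1 and alas2. Without removing the time means it was 0.860 between cygb1 and hbba1 and 0.990 between hbba1 and hbaa1. In the 3 dpa libraries the deviations were 0.070, 0.187 and -0.257 for cygb1 and -0.579, -0.158 and 0.737 for hbba1. They were opposite in sign in each, which lowers the r of 0.280. The signs were also opposite in 0 dpa replicate 3, 7 dpa replicate 2 and 10 dpa replicate 2, and alike in the rest. These correlations are descriptions, since genes of 1 library share its pool of animals and its RNA, and similar chains share reads.

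**Figure D3:**
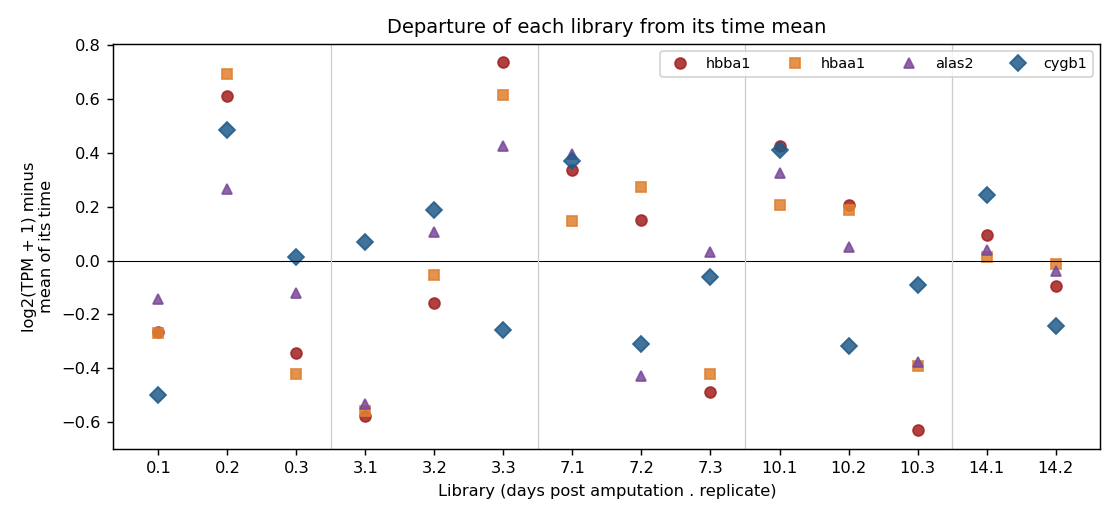
Deviation of cygb1, hbba1, hbaa1 and alas2 in each library from the mean of its time, in log2(TPM + 1). Each mark is a gene and each position a library, and grey lines part the times. The marks of hbba1 and hbaa1 lie close together (r = 0.959 over 14 libraries) and those of cygb1 depart from them, most plainly in 3 dpa replicate 3.

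Genes whose levels followed each member most closely were listed by Pearson's r of log2(TPM + 1) over the 14 libraries. For cygb1 these were c1qtnf5, a secreted protein of the C1q and TNF family (r = 0.993), fibinb (0.992), dachc (0.989), cd276, a cell surface protein of the B7 family (0.989), and ogfr (0.988). c1qtnf5 was at 18.9 TPM by mean at 0 dpa, 784 at 3 dpa, 250 at 7 dpa, 152 at 10 dpa and 61.7 at 14 dpa. It also followed cygb1 within times, with r = 0.945 over the deviations from the time means.

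For hbba1 they were ba1l (0.998), cahz, a carbonic anhydrase of red cells (0.932), mapkapk3, a protein kinase (0.928), pacc1 (0.926) and timp2b, a metalloproteinase inhibitor (0.924). For alas2 they were ba1l (0.934), LOC110437714 (0.927), grpel2 (0.927), exosc6 (0.922) and aplnrb, an apelin receptor (0.922). The closest genes to cygb1 held none of the genes closest to hbba1 or alas2. Lists this short can differ even between members with similar patterns, since those of hbba1 and alas2 shared ba1l alone. The correlations also include the libraries by which the members were chosen. Nothing is therefore read from the lack of shared genes. cygb2 was too low for such a list.

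Other genes of the pathways were taken from lists drawn up with earlier results of these data known. They are read against all genes tested, of which 35.0% were higher and 19.6% lower at 3 than at 0 dpa, with a median difference of 0.24 on the log2 scale. With median-of-ratios scaling the median was 0.02, and the share of called genes that were higher was 49.4% in place of 64.1%. That share moved from 70.3% to 48.8% at 7 dpa, from 83.7% to 58.4% at 10 dpa and from 90.4% to 51.9% at 14 dpa against 0 dpa. From 10 to 14 dpa it moved from 58.5% to 39.1%. Over all 11254 genes tested with that scaling, 2927 were higher and 3001 lower at 3 against 0 dpa. At 7 dpa 1817 were higher and 1908 lower, at 10 dpa 1212 and 864, and at 14 dpa 272 and 252. From 7 to 14 dpa 849 were higher and 969 lower with it, and 9.36% were higher and 7.23% lower without it. List counts with that scaling are read against these.

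Of 16 red cell genes tested, 9 were higher and 1 lower than at 0 dpa, with a median difference of 0.64 (8 higher and 3 lower with median-of-ratios scaling). One of the 9 was ank1a, at 0.25 TPM by mean at 0 dpa and 0.93 at 3 dpa. It reached 1 TPM only in 3 dpa replicate 1 and 10 dpa replicate 1. Without its 3 dpa libraries it would not have been kept, so whether it was tested depended on its 3 dpa level. With no filter 10 of the 20 in the table were higher and 2 lower. Some of these genes stood on an erythrocyte list already reported from these data. Neither the count nor the p-values of red cell genes at 3 against 0 dpa are therefore independent support. The 9 that were higher had means of at most 10.5 TPM at 3 dpa. The level summed over the 20 red cell genes in the table was 40.3 to 51.4 TPM at 0 dpa and 53.0 to 88.9 at 3 dpa. It was 50.4 to 53.6 at 7 dpa, 53.0 to 61.0 at 10 dpa and 57.1 to 66.9 at 14 dpa. Of that sum, blvrb alone was 23.6 of 45.1 TPM by mean at 0 dpa and 20.5 of 69.6 at 3 dpa. cahz, the carbonic anhydrase, went from 1.42, 2.63 and 0.536 TPM to 4.70, 6.61 and 9.99 TPM (log2 difference 1.71 ± 0.32, limma adjusted p = 0.000667). slc4a1a, the band 3 anion exchanger of the red cell membrane, went from 0.405, 1.42 and 0.670 TPM to 3.05, 4.83 and 5.80 TPM (1.61 ± 0.24, limma adjusted p = 0.000104). For both, 3 dpa replicate 3 was the highest library, as it was for hbba1, hbaa1 and alas2.

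The membrane skeleton gene epb41b (1.297 ± 0.26, limma adjusted p = 0.00120) and tal1, a transcription factor of blood and endothelial precursors (1.24 ± 0.17, limma adjusted p = 6.11e-05), were also higher at 3 dpa. The erythropoietin receptor epor was the member of the list that was lower, at 3.64, 2.97 and 4.69 TPM at 0 dpa and 0.889, 1.03 and 1.25 TPM at 3 dpa (-1.20 ± 0.16, limma adjusted p = 5.08e-05). gata1a, a main regulator of red cell genes, did not pass at 3 dpa (0.35 ± 0.24). It was higher than at 0 dpa at 10 dpa (0.91 ± 0.24, limma adjusted p = 0.0192) and 14 dpa (1.09 ± 0.26, limma adjusted p = 0.0227), where the call was lost with median-of-ratios scaling (0.90 ± 0.28, limma adjusted p = 0.0920). klf1 and nfe2, further red cell regulators, were under 1 TPM in every library.

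At the later times fewer red cell genes differed from 0 dpa. At 7 dpa 2 of 16 were higher and 1 lower, where 21.5% of all genes were higher and 9.07% lower. At 10 dpa 4 were higher and 1 lower, beside 14.0% and 2.73% of all genes. At 14 dpa 3 were higher and 1 lower, beside 10.1% and 1.08% of all genes. With median-of-ratios scaling 1 was higher and 1 lower at 7 dpa, 2 and 1 at 10 dpa, and 0 and 1 at 14 dpa. Over all 11254 genes that scaling called 1817 higher and 1908 lower at 7 dpa, 1212 and 864 at 10 dpa, and 272 and 252 at 14 dpa. epor was the lower red cell gene at each of these times. Between 7 and 14 dpa none was higher and lmo2, a cofactor of tal1, was lower (-0.72 ± 0.20, limma adjusted p = 0.0248), beside 9.36% and 7.23% of all genes.

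Of 11 haem synthesis genes tested, 2 were higher and 1 lower at 3 dpa, with a median of 0.29 (0 higher and 1 lower with median-of-ratios scaling). alas1, the synthase of cells other than red cells, stood at 887, 1322 and 900 TPM at 0 dpa and at 240, 205 and 187 TPM at 3 dpa. It was lower at 3 dpa without overlap (-2.27 ± 0.25, limma adjusted p = 8.82e-06), and still at 7 dpa (-1.62 ± 0.25, limma adjusted p = 0.000331) and 10 dpa (-1.02 ± 0.25, limma adjusted p = 0.0132). The ratio of alas1 to alas2 was 420 to 425 in the 0 dpa libraries and 14.9 to 40.2 in the 3 dpa libraries. It was 58.7 to 106 at 7 dpa, 71.5 to 144 at 10 dpa and 124 to 144 at 14 dpa. The later enzymes urod (0.69 ± 0.17, limma adjusted p = 0.00496) and alad (0.62 ± 0.22, limma adjusted p = 0.0324) were higher at 3 dpa, and both calls were lost with median-of-ratios scaling (limma adjusted p = 0.0630 and 0.0951). No gene of the list passed between 7 and 14 dpa.

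Of 8 haem breakdown and iron genes, 2 were higher and 0 lower at 3 dpa (2 and 1 with median-of-ratios scaling). hmox1a, haem oxygenase, which opens the haem ring, went from 32 to 252 TPM by mean (2.61 ± 0.66, limma adjusted p = 0.00510). Its libraries spanned 22.4 to 41.9 TPM at 0 dpa and 76.2 to 480 at 3 dpa. slc40a1, the iron exporter ferroportin, went from 6.61 to 17.6 TPM (1.405 ± 0.46, limma adjusted p = 0.0205). fth1a, a ferritin heavy chain, was higher at 14 than at 7 dpa (0.67 ± 0.10, limma adjusted p = 0.00113).

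Genes that reduce cytoglobin or make and clear nitric oxide moved in both directions. Of 12 tested, 6 were higher and 2 lower at 3 dpa (3 and 3 with median-of-ratios scaling). nos2a, an inducible nitric oxide synthase, went from 861 to 43.9 TPM by mean (-3.98 ± 0.87, limma adjusted p = 0.00197). Its libraries spanned 343 to 1724 TPM at 0 dpa and 30.3 to 63.4 at 3 dpa. They spanned 95.1 to 1263 TPM at 7 dpa and 256 to 1370 at 10 dpa. prkg1a, a kinase activated through nitric oxide, was also lower at 3 dpa (-1.44 ± 0.25, limma adjusted p = 0.000367). ddah1 and ddah2, which break down an inhibitor of nitric oxide synthases, were higher (1.47 ± 0.18 and 0.999 ± 0.16, limma adjusted p = 2.50e-05 and 0.000242). From 7 to 14 dpa, ddah1 (-0.75 ± 0.20, limma adjusted p = 0.0240) and adh5, which clears S-nitrosoglutathione (-0.67 ± 0.15, limma adjusted p = 0.00971), were lower, the direction of cygb1, and the other 10 did not pass.

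Oxidant defence and hypoxia genes were likewise mixed. Of 23 oxidant defence genes, 9 were higher and 7 lower at 3 dpa (7 and 8 with median-of-ratios scaling). The glutathione peroxidase family genes gpx7 (4.76 ± 0.27, limma adjusted p = 3.43e-08) and gpx8 (3.88 ± 0.25, limma adjusted p = 1.15e-07) and catalase, cat (1.95 ± 0.27, limma adjusted p = 7.26e-05), were higher. nqo1, a quinone reductase, was lower (-2.54 ± 0.23, limma adjusted p = 2.08e-06). gpx7 and gpx8 were lower again at 14 than at 7 dpa (-1.75 ± 0.30 and -1.59 ± 0.28, limma adjusted p = 0.00200 and 0.00257), while 7 genes of the list were higher (4 with median-of-ratios scaling). The shares over all genes were 9.36% higher and 7.23% lower.

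Of 24 hypoxia genes, 5 were higher and 3 lower at 3 dpa, with a median of 0.03 (4 and 7 with median-of-ratios scaling). vegfab, a growth factor for vessels (1.67 ± 0.26, limma adjusted p = 0.000164), and pfkfb4b, an enzyme that sets glycolytic flux (1.62 ± 0.31, limma adjusted p = 0.000782), were higher. ddit4, an inhibitor of growth signalling (-2.15 ± 0.22, limma adjusted p = 4.35e-06), and hif1al, an alpha subunit gene of the hypoxia-inducible factors (-1.66 ± 0.40, limma adjusted p = 0.00355), were lower. Later, 4 hypoxia genes were higher and 1 lower at 14 than at 7 dpa (2 and 1 with median-of-ratios scaling). Over all genes 9.36% were higher and 7.23% lower in that comparison.

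**Figure D4:**
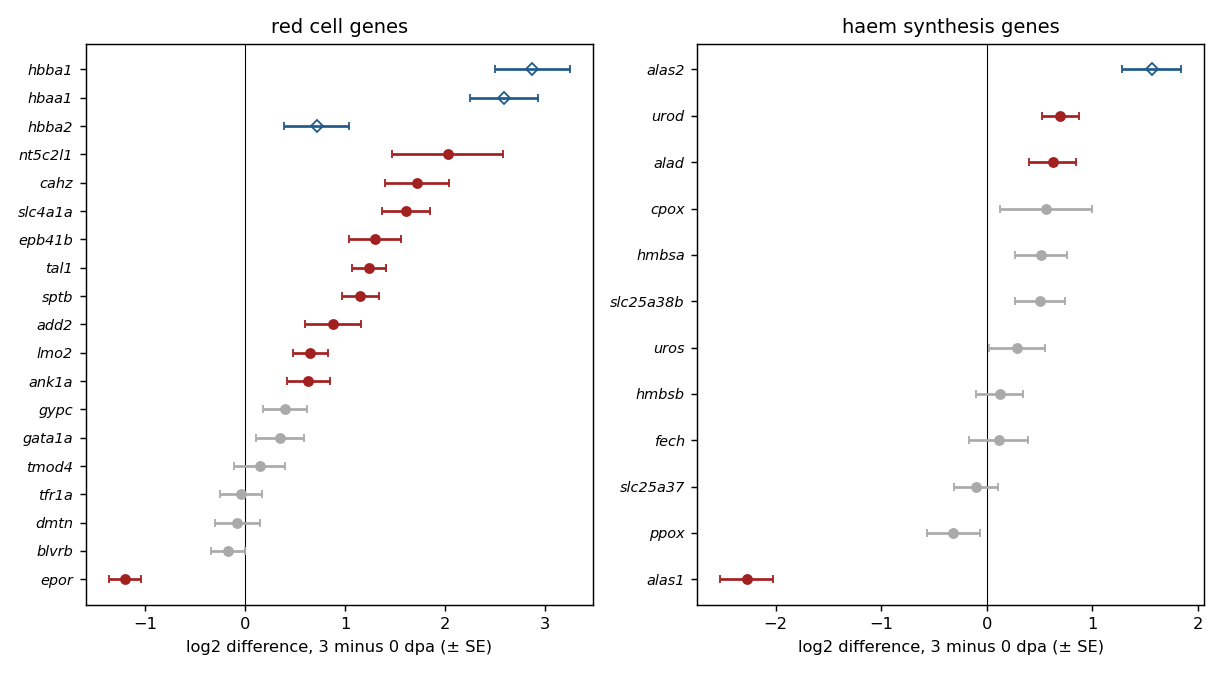
Log2 difference between 3 and 0 dpa, with SE, of red cell genes (left) and haem synthesis genes (right), with 1 gene per row. Blue open diamonds are members, which have no test in this comparison, red points have a limma adjusted p under 0.05 and grey points do not. Among the red points epor (-1.20) and alas1 (-2.27) are the only ones left of 0.

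Markers of other cell types in the strip moved over the same times. Over all genes, 35.0% were higher and 19.6% lower at 3 than at 0 dpa. From 7 to 14 dpa 9.36% were higher and 7.23% lower. Of 14 fibroblast markers, 14 were higher at 3 than at 0 dpa (13 with median-of-ratios scaling), and 12 were lower at 14 than at 7 dpa (11 with that scaling). Their summed level was 5397 to 6709 TPM at 0 dpa, 82157 to 102966 at 3 dpa, 47983 to 68077 at 7 dpa, 38070 to 44211 at 10 dpa and 16203 to 18075 at 14 dpa. Of 9 osteoblast markers, 6 were higher at 3 dpa and 5 lower from 7 to 14 dpa, with sums of 227 to 369 TPM at 0 dpa, 12847 to 12974 at 3 dpa and 2334 to 2692 at 14 dpa. These sums had the same order of times as cygb1, but a single collagen gene led each. At 3 dpa col1a1a was 65600 of 95958 TPM by mean in the fibroblast sum. At that time col10a1a was 12418 of 12931 TPM in the osteoblast sum. Of the other osteoblast markers, ifitm5, phospho1 and sp7 had their highest mean at 3 dpa. That of runx2a and runx2b was at 7 dpa, and that of alpl, bglap and spp1 at 10 dpa. Among the fibroblast markers, pdgfrb had its highest mean at 7 dpa (123 TPM, against 98.4 at 3 dpa). twist2 was at 72.9 TPM at both times, and the others were highest at 3 dpa. fn1b was higher by mean at 14 than at 10 dpa (3508 against 2566 TPM). The part of these cells in the change of cygb1 was not tested.

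Of 19 endothelium markers, 15 were higher and 2 lower at 3 dpa. Among them was flt1 (0.26 TPM by mean at 0 dpa and 1.02 at 3 dpa), which would not have been kept without its 3 dpa libraries. With no filter the counts over 21 markers were also 15 and 2. Their sums were 247 to 276 TPM at 0 dpa, 469 to 565 at 3 dpa, 481 to 558 at 7 dpa and 297 to 381 at 14 dpa. The endothelium sum at 7 dpa overlapped that at 3 dpa. It includes lyve1a, which was at 48.2 TPM by mean at 0 dpa, 2.58 at 3 dpa and 28.7 at 7 dpa. hbba1, hbaa1 and alas2 were lower at 7 than at 3 dpa without overlap. Of 4 thrombocyte markers, 2 were higher and 0 lower at 3 dpa, and of 8 mural cell markers 1 was higher and 3 lower. Of 12 epidermis markers 1 was higher and 8 lower, and of 8 leukocyte markers 0 were higher and 5 lower. The part of blood content, vessels or other cells in the globin levels was not tested.

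Of the 14 libraries, 4 stand apart from the rest of their time in earlier results of these data, among them 2 of the 3 at 10 dpa (replicates 2 and 3) and 1 each at 0 dpa (replicate 1) and 7 dpa (replicate 2). Within a time, libraries correlated across genes between 0.953 and 0.991. Without these 4, the fall of cygb1 from 7 to 14 dpa was -1.89 (limma adjusted p = 0.000859), and that from 10 to 14 dpa was -1.32 (limma adjusted p = 0.0388), with 1 library left at 10 dpa that is assumed to vary like the other groups. Without these 4, the median log2 difference at 3 against 0 dpa was 0.31 over all genes tested. It was 0.72 for the red cell genes, 0.46 for haem synthesis, 0.065 for hypoxia and 0.41 for the nitric oxide genes.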

How the data were processed

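Each of the 14 libraries has 1 deposited TPM value per gene, computed by the authors. Per the submitters' processing notes, the tools were Salmon 1.4.0, Trim Galore 0.6.7 and cutadapt 3.5, with the build danRer11. The sources used here do not give how transcripts became genes. Low values step in whole multiples of 1 step per library for all genes, as read counts scaled to the library total do, which gives the depth. Over all values only 39.8% to 74.8% came out whole within 0.1 of a step, so reads were not recovered for the table and no count test was run. Of 14836 genes, 939 were at 0 in all libraries, and 11272 were kept because 2 or more libraries had 1 TPM or more.

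Values were transformed as log2(TPM + 1). A model with 1 mean per time was fitted with limma 3.58.1 (R 4.3.3) over all 14 libraries, with variances following mean expression, two-sided contrasts and Benjamini-Hochberg adjustment over all genes kept. An adjusted p under 0.05 was called. The fit was tested on simulated data. Ratios were tested by exact permutation of libraries.

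The members and the 14 lists (7 of related genes, red cells included, and 7 of markers for fibroblasts, mural cells, osteoblasts, endothelium, epidermis, thrombocytes and leukocytes) were chosen with earlier results of these data known. All members were named. Up to 4 genes per list and contrast could be named, the largest changes past the threshold without overlap, and the 5 genes closest in pattern to a member (symbols without a colon, at least 5 TPM at their highest time). gata1a at 3 dpa, klf1, nfe2, hbaa2, ank1a, flt1 and the globin neighbours were named after their values were seen. So were the genes named within a summed level. The 4 libraries called apart were set apart in earlier results. No sequence is given, because none of the tables used here holds one.

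Results were repeated with a pseudocount of 0.1 or 5, without the filter, with a filter on a mean of 5 TPM, with median-of-ratios scaling, library weights, other model choices, only the groups compared, the replicate number as a block, each library left out, the 4 libraries left out, and summed beta chains.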

Additional observations from a re-analysis of the deposited data

How the results depend on the processing

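Of 1094 alternative values of 46 results, 1049 kept their direction and side of the threshold, or, without a test, moved by less than the spread between replicates. Direction changed in 14 of the alternative values. All were of tested differences of hbaa1, alas2 or hbba1 that were not called under any setting. hbaa1 from 10 to 14 dpa (0.03) was -0.055 with median-of-ratios scaling, -0.085 with library weights, -0.049 with the replicate block and -0.18 without the 4 libraries. With library weights alas2 was -0.086 from 7 to 10 dpa (0.13) and -0.15 from 7 to 14 dpa (0.06), the latter also -0.15 without the 4 libraries. With 1 library left out alas2 was -0.087 to 0.33, -0.25 to 0.10 and -0.15 to 0.26 from 7 to 10, 10 to 14 and 7 to 14 dpa, hbaa1 was -0.17 to 0.13 from 10 to 14 dpa, and hbba1 was -0.50 to 0.029 from 10 to 14 and -0.090 to 0.32 from 7 to 14 dpa. With a pseudocount of 0.1 the hbba2 log2 difference was 1.66 at 3, 0.65 at 10 and 2.14 at 14 against 0 dpa, and -2.02 from 3 to 7 dpa. With a pseudocount of 5 it was 0.23 at 3 and 0.28 at 14 dpa against 0 dpa and -0.26 from 3 to 7 dpa, and the 3 against 0 dpa difference was 6.03 for cygb1, 2.12 for hbaa1 and 0.93 for alas2, with 3.84 for cygb1 at 7 dpa. A larger pseudocount shrinks differences of low genes by construction. With library weights the cygb1 difference was 2.83 at 10 against 0 dpa, -1.28 from 7 to 10 dpa (limma adjusted p = 0.00307) and -0.64 from 10 to 14 dpa (limma adjusted p = 0.0225), both then called. Without the 4 libraries the latter was -1.32 (limma adjusted p = 0.0388). hbba2 from 7 to 14 dpa was 0.60 to 1.396 with 1 library left out, and was called without 3 dpa replicate 1 (limma adjusted p = 0.0283). Since hbba2 was kept only through its 3 and 14 dpa levels, nothing is read from that call. The cygb1 to hbba1 change from 7 to 14 dpa was -2.12 to -1.67 with 1 library left out. Its exact permutation p was then 0.0190 to 0.0714, and in 3 of these cases it was over 0.05. Over the related and marker lists, 47 genes were called at 14 against 0 dpa, and 89 with library weights, 29 with median-of-ratios scaling, 17 with only the groups compared, 74 without the 4 libraries and 14 to 51 with 1 library left out. From 7 to 14 dpa 51 were called, 30 with only the groups compared and 29 to 55 with 1 library left out. At 10 against 0 dpa 54 were called, and 108 with library weights. Over all genes, calls from 7 to 14 dpa numbered 1870, from 731 without 14 dpa replicate 2 to 3168 with library weights. From 10 to 14 dpa they numbered 989 (120 without 14 dpa replicate 1 to 5027 with library weights) and from 7 to 10 dpa 2 (0 to 3211). Against 0 dpa they numbered 3442 at 7 dpa (2310 to 5349), 1885 at 10 dpa (1196 to 6433) and 1265 at 14 dpa (177 to 4985). Where no reason is given, the cause was not tested. The labels give no link between same-numbered libraries besides the number. Their deviations from the time means correlated between -0.772 and 0.571, which cannot tell whether they shared anything else. With the number as a replicate block the cygb1 fall from 7 to 14 dpa was -1.78 (limma adjusted p = 0.00553), and the block changed no call of a member. The 2 libraries at 14 dpa limit the precision, and the depth of about 14800000 to 16000000 reads limits cygb2 (at most 2 reads) and hbba2 (1 to 31 reads).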
